A study of Mus musculus with 6 samples.

Results

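The promoters of 44 cell cycle and p53 genes were examined in 6 lists of H3K4me3 peaks from mouse striatal progenitor cells. The genes are cyclins, cyclin-dependent kinases and their inhibitors, the retinoblastoma family, E2F factors, p53 with Mdm2 and Mdm4, the Cdc25 phosphatases with Wee1, checkpoint and mitotic kinases, and the Myc factors. They are 44 of the 21911 protein-coding genes of the GENCODE vM21 annotation and were chosen by name. A gene counted as marked in a list if any of its annotated transcript starts had a peak at a distance of 1 kb or less. Of the 227418 peaks in the 6 lists, 319 met that rule for these genes, with 51 to 56 in each list.

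Trimethylation of lysine 4 on histone H3 collects at the starts of active genes and of many CpG-rich genes that are ready for use. Cyclins activate cyclin-dependent kinases, which phosphorylate the retinoblastoma family and so release E2F factors that switch on genes for DNA replication. p53 raises the kinase inhibitor Cdkn1a after damage, while Mdm2 and Mdm4 restrain p53. In cells starved of serum this circuit governs the exit from the cycle.

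The cells were the STHdh lines, made from the embryonic striatum of C57BL/6 mice and used as a model of Huntington's disease. Every culture was starved of serum for 24 h. The Q7SST list came from wild-type cells (genotype spelled STHdh7 in the labels) with vehicle, and the Q111SST list from mutant knock-in STHdhQ111 cells with vehicle. The other 4 lists came from STHdhQ111 cells given 10 uM of a compound: the antihistamines cyproheptadine and meclizine, the antipsychotic loxapine, or diacylglycerol kinase inhibitor II (DKI). Each genotype was 1 immortalized line, so genotype and line cannot be told apart, and lines of this kind were made with a temperature-sensitive SV40 large T antigen, a protein that binds both the retinoblastoma family and p53.

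Each condition had 1 peak list, and whether replicate cultures were pooled into it is not given in the sources used here. No difference between lists could therefore be set against replicate error, no test was made, and every value below is a description of these lists. The lists held 30758 peaks (DKI) to 45564 peaks (loxapine), and marked 55.4% to 59.9% of all coding genes. Read depth is unknown. Of 10 markers of neural progenitors, 7 to 9 were marked per list and 6 in all 6 lists. Of 8 striatal neuron markers 2 to 6 were marked per list, and the dopamine receptor genes Drd1 and Drd2 were marked in none. All 4 mesenchymal markers were marked in 5 of the 6 lists and 3 of them in Q7SST. The marked number was 2 to 3 of 4 for astrocytes, 0 to 1 of 4 for oligodendrocytes, 1 to 2 of 4 for microglia and 0 to 1 of 3 for endothelium.

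Promoter sequences are shown for 7 members on whose peaks the results below turn. Cdk1, E2f3, Cdc25a and Rbl1 are shown because their peaks differed in rank or edge between lists and their promoters hold an E2F word, which the peak does not always reach, Ccnb2 because it had the widest range of rank and 3 CCAAT boxes, and Ccne1 and Cdkn1b because their starts were poor in peaks. Each run ends before the gene's first annotated start and begins 160 bases upstream of the RefSeq start (RefSeq, GRCm38.p6). Capitals mark E2F words (TTTCCCGC, TTTGGCGC, TTTGCCGC or TTTCGCGC), the cell cycle homology region or CHR (TTTGAA or TTCGAA), and CCAAT, read on either strand. No one of these words contains another.
Cdk1, chr10:69352939-69353072, minus strand: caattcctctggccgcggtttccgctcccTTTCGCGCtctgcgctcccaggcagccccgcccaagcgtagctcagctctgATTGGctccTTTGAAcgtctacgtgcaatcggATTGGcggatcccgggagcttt
E2f3, chr13:29986064-29986223, minus strand: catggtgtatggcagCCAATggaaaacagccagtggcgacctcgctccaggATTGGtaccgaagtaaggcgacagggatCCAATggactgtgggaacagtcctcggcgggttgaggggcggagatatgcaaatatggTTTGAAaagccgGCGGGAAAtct
Cdc25a, chr9:109875419-109875578, plus strand: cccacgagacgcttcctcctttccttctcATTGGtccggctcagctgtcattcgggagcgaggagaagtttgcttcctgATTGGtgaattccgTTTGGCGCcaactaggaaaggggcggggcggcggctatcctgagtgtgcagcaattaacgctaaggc
Rbl1, chr2:157204535-157204694, minus strand: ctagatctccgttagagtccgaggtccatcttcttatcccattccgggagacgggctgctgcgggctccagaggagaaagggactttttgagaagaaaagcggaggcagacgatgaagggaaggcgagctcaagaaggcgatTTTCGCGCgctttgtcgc
Ccnb2, chr9:70421555-70421714, minus strand: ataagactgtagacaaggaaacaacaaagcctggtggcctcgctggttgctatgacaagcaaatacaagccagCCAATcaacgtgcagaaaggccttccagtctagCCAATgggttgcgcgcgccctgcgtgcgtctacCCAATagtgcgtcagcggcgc
Ccne1, chr7:38107535-38107650, minus strand: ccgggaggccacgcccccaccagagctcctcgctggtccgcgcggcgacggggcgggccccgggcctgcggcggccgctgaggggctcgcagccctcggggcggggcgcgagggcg
Cdkn1b, chr6:134920241-134920400, plus strand: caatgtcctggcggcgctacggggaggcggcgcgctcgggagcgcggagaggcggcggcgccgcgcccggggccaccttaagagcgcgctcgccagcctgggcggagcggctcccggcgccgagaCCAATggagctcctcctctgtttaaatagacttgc

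A promoter entry was found for 33 of the 44 members, and the entry nearest the first-named transcript start was used for each gene. None was at hand for Ccna2, Ccnd1, Ccnd2, Ccne2, Rb1, E2f4, E2f5, Cdc25c, Wee1, Myc and Aurkb. In the 300 bases from 250 before to 50 after the start, an E2F word was present in 9 of 33 members (27.3%), against 4.45% of the 9208 promoters whose genes were marked in all 6 lists and 2.94% of all 16522 promoters. The 9 were Cdk1, Cdk2, Rbl1, E2f2, E2f3, E2f7, Cdc25a, Chek2 and Mycn. A CHR was present in 11 members (33.3%, against 13.7% of marked promoters), CCAAT in 20 (60.6%, against 39.5%), and both CHR and CCAAT in 8 (24.2%, against 5.92%). Those 8 were Ccnb2, Cdk1, E2f3, E2f8, Cdc25b, Plk1, Aurka and Bub1. Some members have an entry at a further start that was not counted, such as the p19Arf start of Cdkn2a, which holds an E2F word, and the downstream start of E2f2, which holds a CHR. These are matches of letters, and binding was not measured.

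The mark was present at nearly all of these genes in every list. In Q7SST, Q111SST and cyproheptadine 43 of 44 were marked (97.7%, 95% Wilson interval 88.2 to 99.6), beside 59.9%, 58.4% and 55.4% of all coding genes. In loxapine, DKI and meclizine all 44 were marked (100%, 92.0 to 100), beside 58.1%, 55.8% and 58.6%. These intervals cover counting error only. In all 6 lists together, 43 members were marked, beside 53.5% of coding genes. Every gene in the 4 lists of related genes was also marked in all 6 lists: 20 of 20 p53 targets such as Gadd45a and Ccng1, 20 of 20 replication genes such as Mcm2 and Pcna, 20 of 20 mitosis genes such as Top2a and Foxm1, and 7 of 7 partners of the DREAM repressor complex such as Lin9 and Lin54.

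Cdkn1b, which encodes the p27 inhibitor of cyclin-dependent kinases, was the 1 member not marked throughout. Its gene lies at chr6:134920401-134925513 on the plus strand, with 2 starts. In Q111SST the flanking peaks ran from 3757 to 2900 bp upstream of the start, with a score of 96, and from 1863 to 3951 bp downstream, with a score of 54. In Q7SST and cyproheptadine the downstream peak began 1899 and 1908 bp from the start. All of these lay outside the 1 kb window, and the gene body peak was present in every list. In loxapine and meclizine that peak began 1066 and 1059 bp downstream, near enough to the later start to count. DKI alone had a peak next to the start, 209 bp wide from 2 to 210 bp past it, with a score of 101. Gains of a mark against Q111SST took in 3.60%, 0.306%, 1.01%, 0.269% and 1.02% of coding genes in Q7SST, cyproheptadine, loxapine, DKI and meclizine, and losses 2.08%, 3.33%, 1.24%, 2.88% and 0.799%. Among members there was 1 gain, Cdkn1b, in each of loxapine, DKI and meclizine, and no loss. With a window of 5 kb all 44 genes were marked in every list and these gains were gone.

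**Figure D1:**
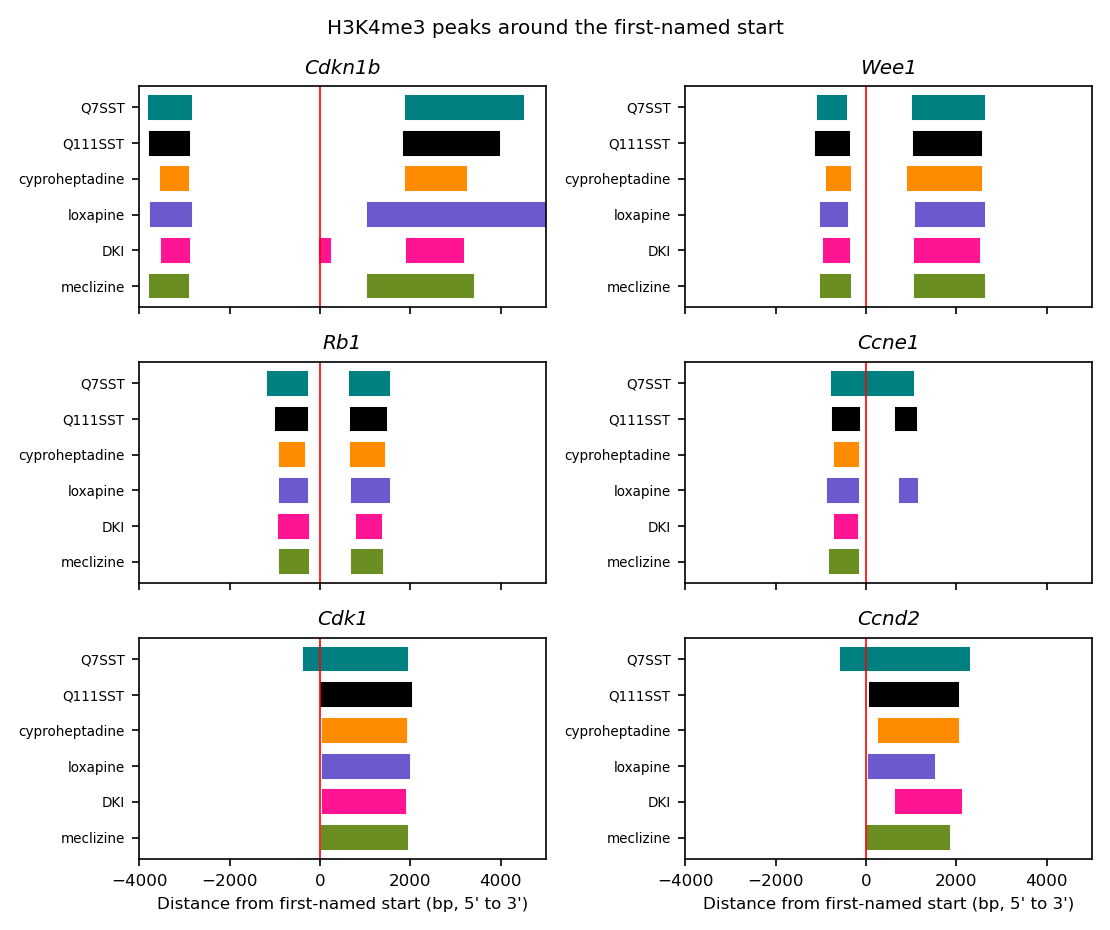
Peaks of the 6 lists (1 row each) around the first-named start of Cdkn1b, Wee1, Rb1, Ccne1, Cdk1 and Ccnd2. The horizontal axis is the distance from that start in bp along the direction of transcription, the red line is the start, and each bar is 1 peak. The starts of Wee1 and Rb1 sat in a gap in all 6 lists, and the peak of Ccne1 spanned its start only in Q7SST.

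To compare strength between lists of different length, the highest score at each promoter was turned into a rank. The rank is its percentile among the 11713 coding genes marked in all 6 lists, so 50 is the middle gene of that list. The deposited score itself differed between lists, with a median over all peaks of 40.0 to 54.0, and was not compared directly. Cdkn1b had no rank because it was not marked throughout, which left 43 members. Their median rank was 41.3 in Q7SST, 39.7 in Q111SST, 43.3 in cyproheptadine, 37.4 in loxapine, 44.7 in DKI and 39.8 in meclizine. By score the median member thus lay below the middle gene in each list. When the rank was taken from score times width it lay above it, at 54.7 to 61.3. Score times width was summed over all peaks within 1 kb of any start, so separate promoters of a gene add up. Going by the median over the 6 lists, 28 members ranked below 50 by score, of which 12 ranked above 50 by score times width (Ccna2, Cdkn2a, Cdkn2c, Rbl1, E2f2, E2f4, E2f8, Trp53, Mdm2, Myc, Aurka and Bub1), and Cdc25b moved the other way. The ranks below are by score unless stated. The summed width of the peaks at its promoters, with a median of 1937 to 2349 bp, was above the median gene of the same list (1595 to 2007 bp).

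**Figure D2:**
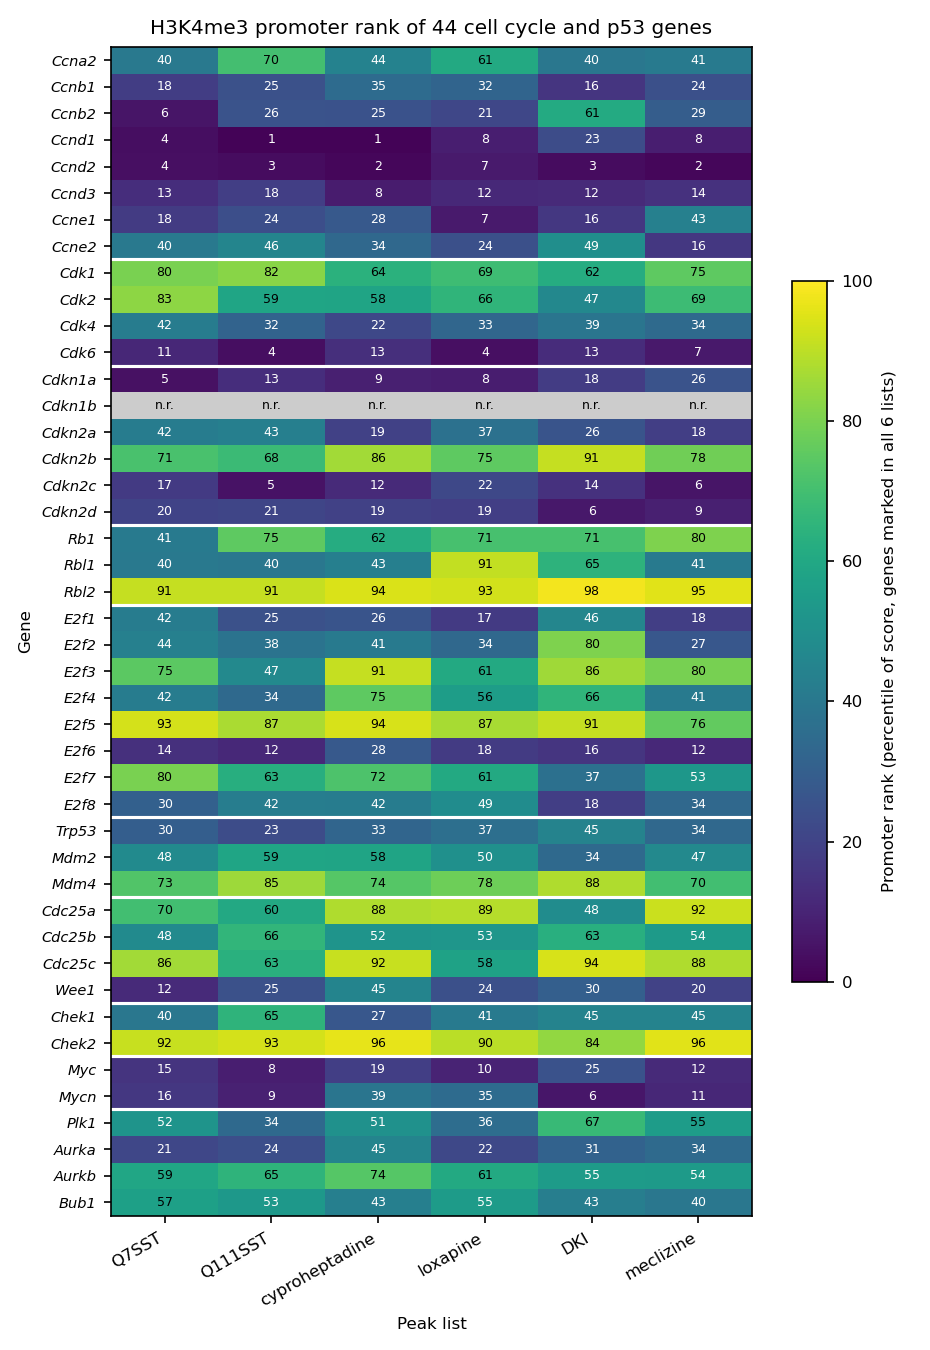
Promoter rank of each member (rows, grouped by role between white lines) in each of the 6 peak lists (columns), in percentiles from 0 to 100. By score and with the 1 kb window, Rbl2 and Chek2 were high in every list, Ccnd2 and Cdk6 low in every list, and Cdkn1b has no rank (n.r.).

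The 8 cyclins had a median rank of 15.3 in Q7SST, 24.4 in Q111SST, 26.5 in cyproheptadine, 16.3 in loxapine, 19.6 in DKI and 20.4 in meclizine, below the median of all members in each list. Ccnd2, a D-type cyclin that answers growth signals, ranked 4.0 in Q7SST, 3.2 in Q111SST, 1.9 in cyproheptadine, 7.4 in loxapine, 3.4 in DKI and 1.7 in meclizine. With the 1 kb window it had the smallest range of any member, while at 5 kb it ranked 38.5 in Q7SST and 1.8 to 6.8 elsewhere. Ccnd1, the D-type cyclin best known as an oncogene, ranked 3.7, 0.8, 0.9, 8.4, 23.1 and 8.4 in the same order. The DKI and meclizine values came from an upstream peak that in Q111SST lay outside the window, and at 5 kb Ccnd1 ranked 4.1, 9.1, 38.6, 7.8, 22.3 and 8.1. Ccnd3 ranked between 7.6 and 18.4, and between 82.2 and 95.4 at 5 kb. Over all promoters, peaks of at least 3 kb had lower median scores (62.0 to 90.0) than peaks of 1 to 2 kb (87.0 to 129.0) in every list.

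Ccna2, the cyclin of S phase and G2, ranked 40.4 in Q7SST, 70.1 in Q111SST, 44.3 in cyproheptadine, 60.7 in loxapine, 39.8 in DKI and 41.2 in meclizine. Its Q111SST value was the highest of the 6, and it stood 29.7, 25.8, 30.3 and 28.9 points above Q7SST, cyproheptadine, DKI and meclizine. Ccnb2, a mitotic cyclin, ranged from 5.6 in Q7SST to 61.0 in DKI, with 25.6 in Q111SST, 25.1 in cyproheptadine, 21.2 in loxapine and 29.3 in meclizine. That range of 55.4 points was the widest of the 43 members by this rank. Ccnb1, its close relative, ranked 15.5 to 34.8 with the window of 1 kb, and 18.0 to 68.9 with one of 5 kb. At 5 kb its values in Q111SST, DKI and meclizine (68.9, 65.7 and 64.2) came from a peak past the end of the gene. That peak fell just outside the window in the other lists. Ccne2, which drives entry into S phase, ranked 40.4, 45.5, 33.8, 24.3, 49.4 and 16.3, lowest in meclizine. By score times width its meclizine value was above that of Q111SST, at 52.3 against 44.3. Ccne1, the other E-type cyclin, ranked 17.5, 24.0, 28.0, 7.4, 16.2 and 43.4, lowest in loxapine. Q7SST was the highest by score times width, at 18.9 against 2.8 to 6.8 in the other lists.

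Of the kinases, Cdk1 is required for mitosis and Cdk2 acts in S phase. Cdk1 ranked 79.9 in Q7SST, 82.1 in Q111SST, 64.0 in cyproheptadine, 68.8 in loxapine, 62.1 in DKI and 75.0 in meclizine. Both vehicle lists were thus above the 4 compound lists. Cdk2 ranked 82.9, 58.6, 58.5, 65.6, 46.7 and 68.6 in the same order, highest in Q7SST. Its peak also lay within 1 kb of a start of the pigment cell gene Pmel in all 6 lists. Cdk4, a partner of the D-type cyclins, ranked 21.5 to 42.1, and Cdk6, the other such partner, 3.7 to 13.4. At 5 kb Cdk4 ranked 61.8 to 96.5, from a peak past the end of the gene. By score times width Cdk6 ranked 24.5 to 50.9.

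Among the kinase inhibitors, Cdkn2b (p15) had the strongest peaks. It ranked 71.1 in Q7SST, 68.0 in Q111SST, 86.1 in cyproheptadine, 75.2 in loxapine, 91.4 in DKI and 78.4 in meclizine, lowest in Q111SST. Its neighbour Cdkn2a ranked 42.1, 43.1, 19.3, 37.4, 25.9 and 18.5 in the same order, and 77.0 to 95.3 by score times width. Cdkn1a (p21), the p53 target that halts the cycle, ranked 4.6 in Q7SST and 25.7 in meclizine, with 12.9, 8.6, 7.9 and 17.7 in Q111SST, cyproheptadine, loxapine and DKI. Cdkn2c (p18) ranked 4.7 to 21.8 by score and 42.5 to 68.5 by score times width. Cdkn2d (p19) ranked 6.5 to 21.0, lowest in DKI, and 18.5 to 27.0 at 5 kb, where DKI was at 26.0 and Q111SST at 21.0.

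Cdkn2a is known for making 2 unrelated proteins from separate starts, p19Arf from the upstream one and p16Ink4a from the downstream one. These starts lie 12461 bp apart on chromosome 4, and both were marked in all 6 lists. At the downstream start the score was 110 in Q7SST, 108 in Q111SST, 51 in cyproheptadine, 99 in loxapine, 61 in DKI and 83 in meclizine. At the upstream start it was 48, 47, 54, 60, 52 and 64. The downstream peak thus scored higher in 5 lists, while in cyproheptadine the upstream peak did, by 3 score units.

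The pocket proteins hold E2F factors in check. Rbl2 (p130), the family member that predominates in resting cells, ranked 91.2 in Q7SST, 91.4 in Q111SST, 94.3 in cyproheptadine, 93.1 in loxapine, 98.1 in DKI and 95.4 in meclizine. By score it had the highest rank of the 3 pocket proteins in every list, and its range was 6.9 points. Rbl1 (p107), itself an E2F target, ranked 40.4, 39.7, 43.3, 91.0, 64.8 and 41.2. The value in loxapine stood 51.3 points above Q111SST, the largest difference of any member by this rank. By score times width Rbl1 ranked 94.9 in loxapine and 66.2 in Q111SST, and several other members differed by more. Among these were Wee1 in cyproheptadine, Ccnd1 in loxapine, Mdm2 in loxapine (54.6 against 90.3) and E2f4 in cyproheptadine (91.5 against 60.9). In loxapine the Rbl1 region was split in a pair of peaks with 837 bp between them.

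Rb1 ranked 41.3 in Q7SST, 75.3 in Q111SST, 62.1 in cyproheptadine, 70.9 in loxapine, 70.9 in DKI and 80.5 in meclizine. Its strongest peak in the 5 mutant lists lay 86036 bp into the gene, at the start of a noncoding transcript and within reach of a start of Lpar6, a receptor gene in an intron of Rb1. There the score was 99 in Q7SST, 149 in Q111SST and between 98 and 177 in the 4 compound lists. At the main start the score was 109 in Q7SST, 95 in Q111SST, 70 in cyproheptadine, 87 in loxapine, 67 in DKI and 127 in meclizine. With starts of coding transcripts only, Rb1 ranked 41.3 in Q7SST, 32.4 in Q111SST, 33.8 in cyproheptadine, 28.8 in loxapine, 31.4 in DKI and 49.3 in meclizine. The direction of the difference from Q111SST thus turned in Q7SST and cyproheptadine.

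E2F factors include activators (E2f1 to E2f3) and repressors (E2f4 to E2f8). E2f3 ranked 74.8 in Q7SST, 47.1 in Q111SST, 91.4 in cyproheptadine, 60.7 in loxapine, 85.7 in DKI and 79.5 in meclizine. Q111SST was the lowest of the 6, and the differences from it were 27.7, 44.3, 13.6, 38.6 and 32.3 points. When the rank was taken from score times width, however, E2f3 was at 70.2, 69.6, 59.0, 54.8, 92.7 and 74.7. The cyproheptadine and loxapine values were then below Q111SST. In those 2 lists the peak at the start shrank to 629 and 748 bp and ended 225 and 250 bp before the start, where the Q111SST peak of 1415 bp had run to 530 bp past it.

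E2f2 ranked 43.7 in Q7SST, 38.1 in Q111SST, 41.1 in cyproheptadine, 33.6 in loxapine, 80.5 in DKI and 27.0 in meclizine, with DKI apart from the rest by score. Its score times width ranked 89.1 in DKI and 71.7 to 81.1 in the other lists. A second start of E2f2, of a noncoding transcript 8389 bp downstream, was marked in all 6 lists. E2f4 ranked 42.1 in Q7SST, 34.0 in Q111SST, 75.2 in cyproheptadine, 55.5 in loxapine, 65.6 in DKI and 41.2 in meclizine, from a peak shared with a start of Exoc3l. By score times width its DKI value was below that of Q111SST, at 48.5 against 60.9. E2f5 stayed high at 76.0 to 94.0 and E2f6 low at 11.6 to 28.0. E2f7, an atypical repressor, ranked 79.9, 62.7, 71.9, 60.7, 36.9 and 53.1 in the same order, lowest in DKI. E2f8, its relative, ranked 30.5, 42.2, 42.1, 48.6, 18.5 and 33.7, lowest in DKI by score. It was lowest by score times width in cyproheptadine and loxapine, at 33.0 and 33.9 against 43.8 in DKI. E2f1 ranked 16.9 to 45.8.

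At the p53 gene, Trp53, the rank was 29.9 in Q7SST, 23.2 in Q111SST, 32.8 in cyproheptadine, 36.6 in loxapine, 44.7 in DKI and 33.7 in meclizine. Its peak covered a start of Wrap53 on the other strand, 104 bp away, in all 6 lists, so the signal cannot be divided between these genes. Mdm2, the ligase that degrades p53, ranked 47.8, 58.6, 58.5, 50.2, 34.3 and 46.9. Mdm4 ranked 73.0, 85.3, 73.6, 78.0, 88.2 and 69.8. By score it was above Trp53 and Mdm2 in every list, while by score times width (55.7 to 71.9) it was below Trp53 (79.9 to 91.4) in every list.

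The Cdc25 phosphatases release the brake that Wee1 puts on Cdk1. Cdc25a ranked 69.8 in Q7SST, 60.3 in Q111SST, 87.9 in cyproheptadine, 89.0 in loxapine, 48.5 in DKI and 91.8 in meclizine. Cdc25c ranked 86.1, 63.4, 91.7, 57.7, 94.0 and 88.2, so that Q111SST and loxapine were together at the low end by score. By score times width DKI was the lowest, at 68.2. Cdc25b went the other way, with 65.8 in Q111SST and 47.8 to 63.1 elsewhere, from a peak shared with a start of Spef1. By score times width it ranked 39.9 in Q111SST and 46.1 in DKI. Wee1 ranked 12.1, 24.8, 45.3, 24.3, 30.4 and 19.6, but its cyproheptadine value came from a downstream peak that lay just outside the window in the other lists. With a window of 5 kb it ranked 54.6, 71.9, 45.0, 65.1, 42.0 and 64.2, so that cyproheptadine was then below Q111SST.

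Chek1, the kinase of the replication checkpoint, ranked 39.6 in Q7SST, 65.1 in Q111SST, 27.0 in cyproheptadine, 41.4 in loxapine, 44.7 in DKI and 44.8 in meclizine. It was highest in Q111SST, by 20.3 to 38.1 points, and all 5 differences kept their sign under each alternative rank. By the main rank 16.2% of all ranked genes and 18.6% of members were below Q111SST in all 5 other lists. With score times width Chek1 ranked 59.3 in Q111SST and 51.8 in DKI. Chek2, which acts after double strand breaks, ranked 83.8 to 96.4, from a peak shared with a start of Hscb.

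Myc and its relative Mycn drive growth and entry into the cycle. Myc ranked 8.3 in Q111SST and 9.9 to 25.0 elsewhere by score, and 50.5 to 85.3 by score times width. Mycn ranked 16.3 in Q7SST, 9.3 in Q111SST, 39.0 in cyproheptadine, 35.1 in loxapine, 6.0 in DKI and 11.2 in meclizine. Of the mitotic kinases, Plk1 ranked 51.9, 34.0, 50.7, 35.9, 67.3 and 55.3, lowest in Q111SST and loxapine. By score times width it ranked 52.4, 50.0, 77.7, 74.1, 66.9 and 70.2, so that loxapine was no longer low. Aurka ranked 21.4 to 45.3, from a peak shared with a start of Cstf1. Aurkb, of the chromosome passenger complex, ranked 54.4 to 73.6. Bub1, of the spindle checkpoint, ranked 39.8 to 56.8.

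Against Q111SST, members ranked higher and members ranked lower were found in every comparison. All 5 comparisons use the same Q111SST list and so are not independent of each other. A difference of at least 10 percentile points was counted. In Q7SST 8 members were higher and 9 lower by that much, beside 21.3% and 21.2% of the 11713 ranked genes. In cyproheptadine 11 were higher and 11 lower, beside 21.4% and 22.3%. In loxapine 7 were higher and 5 lower, beside 19.3% and 20.3%. In DKI 12 were higher and 12 lower, beside 23.1% and 24.9%. In meclizine 10 were higher and 12 lower, beside 16.1% and 16.3%. In either direction that made 17, 22, 12, 24 and 22 of 43 members in the same order, beside 42.4%, 43.7%, 39.5%, 48.1% and 32.4% of ranked genes. The members' median difference was 0.7 points in Q7SST, 3.0 in cyproheptadine, -0.5 in loxapine, 3.7 in DKI and 0.9 in meclizine, and that of all ranked genes was -0.1, -0.3, -0.4, -0.5 and -0.2. Over the 6 lists the median member ranged over 23.9 points and the median gene over 23.6.

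**Figure D3:**
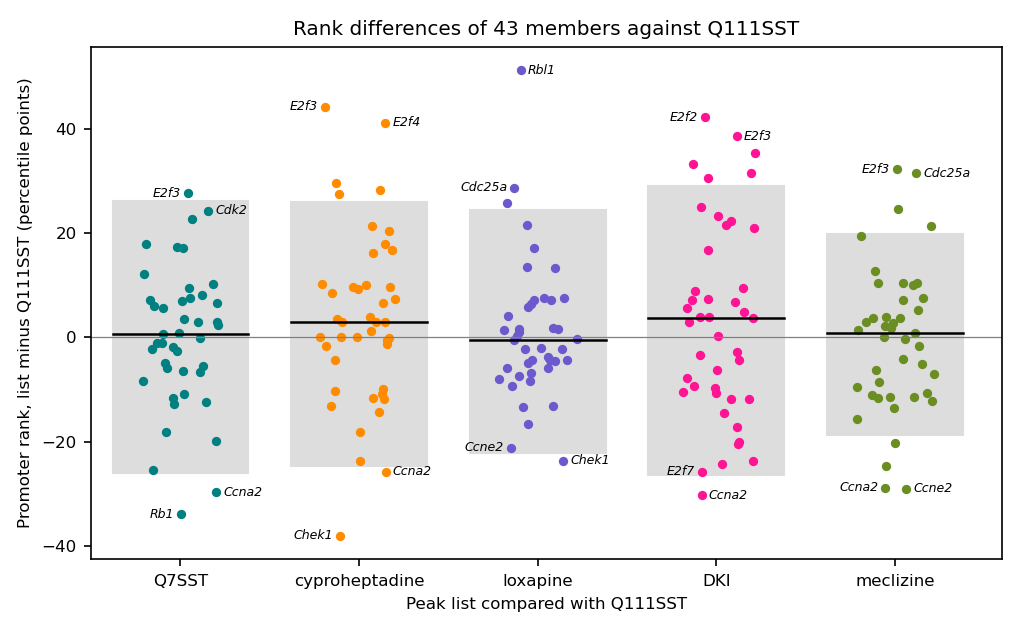
Promoter rank in each list minus that in Q111SST, in percentile points, for 43 members (points, spread sideways only for legibility). Black lines are the members' medians and grey boxes span the 5th to 95th percentile of the 11713 ranked genes. Most members lie inside the boxes, and the points furthest out in each comparison are named.

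Of the 8 E2F factors, 7 ranked higher than in Q111SST in Q7SST, 7 in cyproheptadine, 4 in loxapine, 6 in DKI and 2 in meclizine. Of the 8 cyclins, the number higher was 2, 3, 3, 4 and 3 in the same order. With score times width these numbers were 6, 5, 3, 3 and 3 for the E2F factors and 5, 4, 3, 5 and 4 for the cyclins, so that the majority turned for E2F factors in DKI and for cyclins in Q7SST. Of all 43 members, 22, 25, 20, 24 and 22 ranked higher, beside 49.5%, 48.6%, 48.0%, 47.9% and 48.6% of ranked genes. The 20 replication genes ranked higher in 6, 6, 6, 8 and 4 cases, with median differences of -4.9, -2.5, -7.2, -6.6 and -4.6 points. The 20 mitosis genes ranked higher in 13, 14, 15, 11 and 12 cases, with medians of 4.0, 4.3, 4.9, 7.6 and 3.0. Both lists depended on the rank, since with score times width 5, 13, 8, 10 and 3 replication genes and 10, 10, 12, 10 and 10 mitosis genes were higher. For the 20 p53 targets the medians were 0.3, -2.1, 4.1, -7.3 and -6.9, and for the 7 DREAM partners 1.5, 4.0, 2.8, -2.2 and -7.1. With score times width they were -1.5, -2.5, 0.9, -2.2 and -1.3 for the p53 targets and 0.4, 2.2, -0.4, 1.7 and -1.6 for the DREAM partners.

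The widest marked regions in Q111SST belonged to Myc, Cdkn2a, Cdkn2c and E2f4. For Myc the summed width was 4222 bp in Q7SST, 5389 in Q111SST, 4212 in cyproheptadine, 3950 in loxapine, 3912 in DKI and 4216 in meclizine. For Cdkn2a it was 6035, 5110, 3970, 5194, 4642 and 4986 bp over both starts. The Q7SST sum for Cdkn2a takes in a further peak of 1000 bp just inside the window. A peak there was present in the other lists too, with 755 bp in Q111SST, but lay outside the window. For Cdkn2c the summed width was 4019, 5062, 3913, 4020, 3849 and 4850 bp. The narrowest were those of Wee1, Ccne1, Mycn and Cdc25b. For Wee1 the width was 628 bp in Q7SST, 730 in Q111SST, 2115 in cyproheptadine, 562 in loxapine, 543 in DKI and 633 in meclizine. For Ccne1 it was 1796, 1009, 512, 1045, 472 and 617 bp in the same order, and for Cdc25b 1543, 1545, 1408, 1587, 1311 and 1592 bp.

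Widths were compared as the log2 ratio to Q111SST after subtracting the ratio of the median gene, because the lists differed in peak width throughout. Relative to the median gene, 23, 25, 20, 25 and 21 of 43 members were wider by any amount in Q7SST, cyproheptadine, loxapine, DKI and meclizine, beside 50.0% of ranked genes in each. There were 4 members wider by at least 0.58 on the log2 scale (1.5-fold) in Q7SST and 1 in each compound list, beside 4.06%, 0.700%, 1.35%, 1.26% and 2.16% of ranked genes. Narrower by as much were 1, 4, 3, 4 and 1 members, beside 5.45%, 9.99%, 4.79%, 9.25% and 2.48%. Mycn was the most narrowed. Its peak was 1415 bp wide in Q7SST, 1390 in Q111SST, 244 in cyproheptadine, 494 in loxapine, 424 in DKI and 1054 in meclizine, with log2 ratios of -2.32, -1.47 and -1.44 in cyproheptadine, loxapine and DKI. The part that remained lay upstream, ending 413, 355 and 309 bp before the start. The rank of Mycn by score was higher in cyproheptadine and loxapine than in Q111SST, but by score times width it was lower, at 3.2 and 3.9 against 7.8.

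Ccne1 was wider in Q7SST than in Q111SST (log2 ratio 0.88) and narrower in cyproheptadine (-0.79), DKI (-0.82) and meclizine (-0.62). E2f6 was 1320 bp wide in Q7SST, 1553 in Q111SST, 780 in cyproheptadine, 981 in loxapine, 1065 in DKI and 1080 in meclizine, with log2 ratios of -0.81 in cyproheptadine and -0.64 in loxapine. E2f8 was 2751, 2594, 1576, 1562, 2416 and 2461 bp wide in the same order, with a log2 ratio of -0.71 in loxapine. Mdm4 was 2765, 1563, 1555, 1673, 1329 and 1642 bp wide. Its log2 ratio was 0.87 in Q7SST, where a start of a noncoding transcript 6498 bp downstream carried a further peak with a score of 26. E2f4 was 2448, 4295, 2406, 3539, 1315 and 3739 bp wide, with log2 ratios of -0.76 in Q7SST, -0.65 in cyproheptadine and -1.43 in DKI. In these 3 lists a weak peak near Elmo3, 6495 to 8347 bp from the E2f4 start in Q111SST with a score of 16, was missing. In DKI the peak at the main start was also the shortest, at 1315 bp against 2442 bp in Q111SST.

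At Ccnd1 the question was whether 1 domain or 2 peaks were called. The summed width was 3289 bp in Q7SST, 2021 in Q111SST, 2023 in cyproheptadine, 4477 in loxapine, 2857 in DKI and 3572 in meclizine. In loxapine a single peak ran from 2360 bp upstream of the start to 2116 bp downstream. In Q111SST the same stretch held a peak from 115 to 2135 bp, and another from 2278 to 1145 bp upstream that fell outside the window. The wider region in loxapine, at a log2 ratio of 1.17, and those in DKI (0.78) and meclizine (0.91) thus take in an upstream peak that was also present in Q111SST. Wee1 in cyproheptadine (2115 against 730 bp, 1.72) was alike, since its downstream peak began 931 bp from the start there and 1048 to 1102 bp from it in the other lists.

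H3K4me3 peaks often stop short of the start itself, and for these genes that was scored at the first-named transcript. The start was under a peak in 39 of 44 members in Q7SST, 35 in Q111SST, 29 in cyproheptadine, 32 in loxapine, 32 in DKI and 36 in meclizine, beside 79.7%, 79.4%, 70.1%, 73.8%, 73.9% and 81.0% of the genes marked in all 6 lists. The cyproheptadine list was lowest for both. It was under a peak in all 6 lists for 26 members (59.1%, beside 64.8% of the 11713 genes) and in no list for 3 (6.82%, beside 14.7%), namely Cdkn1b, Wee1 and Rb1. Each of these 3 starts lay in a gap with a peak within 3 kb on both sides in all 6 lists, as did 2.73% of the 11713 genes.

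The gap at Rb1 was 966 bp in Q7SST, 975 in Q111SST, 1047 in cyproheptadine, 984 in loxapine, 1085 in DKI and 976 in meclizine. At Wee1 it was 1488, 1420, 1289, 1530, 1464 and 1444 bp. These gaps kept their place and nearly their size across the lists. The 500 bp around the start were 80.4% G+C at Rb1, 71.2% at Wee1 and 63.8% at Cdkn1b. Among all genes with such a gap in all 6 lists the median was 73.8%, and among genes with the start under a peak in all 6 it was 62.4%. Where G+C was 75% or more, the start was under a peak in 54.3% of genes in Q7SST, 49.8% in Q111SST, 32.3% in cyproheptadine, 38.8% in loxapine, 38.6% in DKI and 59.3% in meclizine. Base composition therefore moved with start coverage, and its part in these gaps was not tested.

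**Figure D4:**
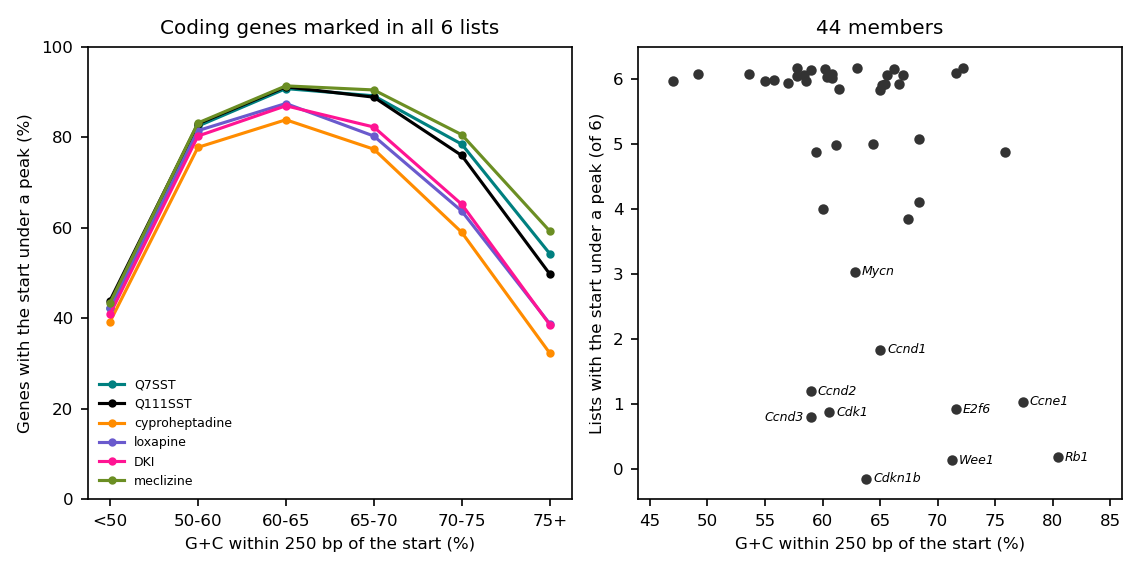
Left, the percent of coding genes marked in all 6 lists whose first-named start was under a peak, by percent G+C within 250 bp of the start, 1 line per list. Right, the 44 members by percent G+C and by the number of lists in which the start was under a peak (points spread slightly up and down). Coverage was lowest below 50% and from 75% G+C on, and Rb1 at 80.4% was the member richest in G+C.

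Ccnd2, Ccne1 and Cdk1 had the first-named start under a peak in Q7SST and in none of the 5 mutant lists, beside 1.43% of marked genes. When a peak over any annotated start was counted, Cdk1 was also covered in Q111SST and Ccnd2 in Q111SST, loxapine and meclizine, which left Ccne1 with this pattern, beside 0.862% of marked genes. For the first-named start no member showed the reverse, beside 0.777%. At Ccne1, with 77.4% G+C, the Q7SST peak ran from 753 bp upstream to 1042 bp downstream. In the mutant lists the upstream peak ended 158 to 207 bp before the start, and a second peak past the start was present in Q111SST (score 21) and loxapine (score 15). At Cdk1 the Q7SST peak began 350 bp upstream of the start, and the mutant peaks began 20 bp (Q111SST), 64 bp (cyproheptadine), 56 bp (loxapine), 66 bp (DKI) and 37 bp (meclizine) past it. At Ccnd2 the Q7SST peak began 554 bp upstream, and the mutant peaks began 28 to 656 bp past the start.

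Members that had the start under a peak in Q111SST and not in a compound list were 7 in cyproheptadine (E2f3, E2f5, E2f6, E2f8, Mdm2, Cdc25a and Mycn), beside 10.0% of marked genes. They were 5 in loxapine (Rbl1, E2f3, E2f6, Mdm2 and Mycn), beside 6.88%, and 4 in DKI (E2f1, E2f5, E2f6 and Mycn), beside 7.23%. In meclizine E2f6 was the only one, beside 1.83%. Starts covered in a list and not in Q111SST were Ccnd1, Ccnd2, Ccne1, Cdk1 and Cdkn2a in Q7SST, beside 3.62%. They were Cdkn2a in cyproheptadine (0.674%) and DKI (1.72%), Ccnd1 and Cdkn2a in loxapine (1.32%), and Ccnd3 and Cdkn2a in meclizine (3.46%). The Q111SST peak at Cdkn2a began 72 bp past the start. Counted over any annotated start, 2 members (Ccne1 and Cdkn2a) were covered in Q7SST and not in Q111SST, beside 2.48%. For the compounds that was Cdkn2a in cyproheptadine (0.427%), loxapine (0.896%) and meclizine (2.58%), and Cdkn2a and Cdkn1b in DKI (1.02%). In the other direction there were 0 members in Q7SST, 6 in cyproheptadine, 5 in loxapine, 5 in DKI and 1 in meclizine, beside 2.43%, 8.35%, 5.55%, 6.18% and 1.34%. Cdk1 was among those of each compound list, while E2f8, Mdm2 and Cdc25a dropped out in cyproheptadine, Mdm2 in loxapine, E2f5 in DKI and E2f6 in meclizine.

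Several members have starts more than 2 kb apart of which only some carried the mark. At Ccnd3 the downstream starts, 88308 bp from the first-named one, were marked in all 6 lists, with scores of 69 in Q7SST, 76 in Q111SST, 36 in cyproheptadine, 60 in loxapine, 44 in DKI and 75 in meclizine. The upstream starts had no peak within 1 kb in Q7SST and DKI and weak ones elsewhere, with scores of 26, 19, 26 and 14. At Cdkn1a the main start was marked throughout, and the starts 2793 bp upstream and 4131 bp downstream in no list. At Mdm4 a coding transcript 5205 bp upstream was unmarked throughout. At Cdc25a the group of starts 8025 bp downstream, with 1 coding transcript, was also unmarked. A noncoding start of Cdc25c, 2264 bp downstream, was reached by the promoter peak in Q111SST and loxapine, and one of Aurkb, 2325 bp downstream, in loxapine only. Elsewhere the unmarked starts were those of noncoding transcripts within the gene, as at Bub1, Rbl2 and Trp53.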

How the data were processed

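H3K4me3 ChIP-seq was done on chromatin crosslinked and cut with MNase, read as single-end reads. The submitters' processing notes name Trimmomatic 0.36, Bowtie2, SAMtools 1.3, MACS2 and mm10. The peak threshold, any input control and any pooling of cultures are not given in the sources used here. The authors deposited 1 peak list per condition with a whole-number score of at least 10 for each peak, whose scale is not stated. Depth is therefore unknown and no precision beyond counting intervals can be given.

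Peaks were matched to starts of GENCODE vM21 (GRCm38). Coding genes outside the mitochondrial genome were tested (21911). Ranks, widths and start coverage were computed with Python 3.11.15, numpy 2.4.6 and pysam 0.24.0. The ranks were tested on a copy of the Q111SST list with noise and raised promoters, and the 1 kb rule with planted peaks. Widths, start coverage and word matches were not tested in this way. No peak passed the end of a GRCm38 chromosome. Each list was compared with Q111SST, with no test. Values in every list are given for members not marked throughout, for the up to 4 largest rank differences of at least 10 points in each direction and comparison, for the 4 widest and 4 narrowest regions, and for up to 3 width changes of at least 0.58. Starts more than 2 kb apart that differ in the mark are described. The members, the lists of related genes and the alternatives were chosen with earlier results of these data known. Alternatives were a window of 0 bp or 5 kb, coding transcripts only, a minimum score, lists of equal length, other ranks and other limits.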

Additional observations from a re-analysis of the deposited data

How the results depend on the processing

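Of 175 values recomputed under an alternative, 140 stayed within the counting interval of the value as reported and 35 fell outside it. For shares of marked members under another window or a minimum score, the direction of a move follows from the definition. The same holds for the limits of 5 and 20 points. The cause of the other moves was not tested. Marked members: with a window of 5 kb the share was 100% in Q7SST, Q111SST, cyproheptadine and all 6 lists together. Of all coding genes 64.8%, 63.7%, 60.4% and 57.5% were marked there. Gains of members in loxapine, DKI and meclizine were 0%. With a peak over the start itself the share marked was 79.5% in cyproheptadine, 81.8% in loxapine, 84.1% in DKI, 90.9% in meclizine and 72.7% in all 6. Beside these stood 45.4%, 48.7%, 47.2%, 52.4% and 42.3% of all coding genes. The share of members lost against Q111SST was then 13.6% in cyproheptadine, 11.4% in loxapine and 11.4% in DKI. Of genes marked in all 6 lists, 8.35%, 5.55% and 6.18% had a start under a peak in Q111SST and none in these lists. With scores of at least 47, the pooled median, the share marked was 84.1% in cyproheptadine, 88.6% in DKI and 79.5% in all 6. Beside these stood 46.6%, 46.6% and 43.4% of all coding genes. Members that differ in rank from Q111SST: at a limit of 5 points 72.1% in Q7SST, 67.4% in cyproheptadine, 60.5% in loxapine, 79.1% in DKI and 69.8% in meclizine, and at 20 points 14.0%, 23.3%, 14.0%, 37.2% and 18.6%. With ranks among all peaks of a list, which move with its length, 20.9% differed in Q7SST, 27.9% in cyproheptadine, 14.0% in loxapine and 14.0% in meclizine, and 41.9% were higher in cyproheptadine and 32.6% in DKI, where most had been higher. With score times width 27.9% differed in meclizine. For these rank alternatives the shares of all ranked genes are not given here, so the shares of members stand alone. No paired analysis was possible because there were no replicate lists to pair. With 1 list per condition, a gene's difference between lists cannot be told from that between repeat libraries.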
